A study of Arabidopsis thaliana with 21 samples.

Results

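The genes described here were those whose signal ran opposite to the dose of ABA2 in rosettes of Arabidopsis thaliana, highest in the aba2 mutant, intermediate in the wild type and lowest in ABA2 overexpression. A probe set, the group of oligonucleotides on an array that reads 1 transcript or a few similar ones, was a member, chosen by the authors' deposited signals, if its group mean was higher in aba2 than in Col-0 by at least 0.5 on the log2 scale, lower in ABA2-OE than in Col-0 by at least 0.5, and 7 or more (a signal of 128) over all 21 arrays. Control probe sets and symbols beginning with EXP, SWEET, UGT, CYP or PDF were to be dropped, and the symbol filter removed 0. Of 22746 probe sets 43 were members. The annotation gives 17 of them 1 gene and 3 several, and it does not list 23, which are given by probe set ID. AT2G36970, a UDP-glycosyltransferase gene, stayed in because the annotation gives it its locus code.

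RNA from the aerial parts of plants grown in soil for 21 days was hybridised to single-channel Affymetrix arrays, 3 for each of 7 genotypes. These were the double mutant aba2/ga20ox1, the combination aba2/GA20OX1-OE, the single mutant aba2, the line ABA2-OE, the line GA20OX1-OE, the single mutant ga20ox1 and the wild type Col-0, and every mutant and transgenic line had a Col-0 background. The labels name 1 overexpression line per gene, and no source used here gives the promoter that drives either transgene. Separate plants, pools or growth batches for the 3 replicates are not described either, so p-values below cover the variation among these 3 arrays and no more, and it may be technical. The number of arrays limits the precision of every value. Neither ABA2 nor GA20OX1 is named by the annotation, so the dose order rests on the genotype labels.

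Abscisic acid (ABA) is the plant hormone of drought and dormancy; it closes stomata and switches on protective genes, and ABA2 encodes a dehydrogenase in the last part of its synthesis. Gibberellins (GA) promote cell elongation and the floral transition by causing DELLA repressor proteins to be degraded, and GA20OX1 encodes an oxidase that makes their precursors. ABA and GA oppose each other in seeds and in growth control, and the study asked how both act together on the leaf.

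The values that chose the members are a description only. In aba2 the members were higher than in Col-0 by a median of 0.68 (range 0.50 to 3.37), and in ABA2-OE they were lower, with a median difference of -0.62 (range -1.22 to -0.50). The widest distance between aba2 and ABA2-OE was that of AT4G21870, 3.97, followed by the probe sets 263836_at (3.89) and 263549_at (3.65), AT2G36970 (2.60) and 267034_at (2.54). Just inside the thresholds lay 267488_at and 250463_at (0.50 and 0.51 in aba2 minus Col-0), AT5G63180 and 259488_at (-0.50 and -0.51 in ABA2-OE minus Col-0), and AT2G36970 and 263349_at (mean levels of 7.003 and 7.085). Just outside lay UBP23 and 259731_at in aba2 minus Col-0 (0.4994 and 0.4989), 247137_at and 262540_at in ABA2-OE minus Col-0 (-0.4993 and -0.499), and AT5G18750 and 264800_at in mean level (6.85 and 6.82). All 43 members had their lowest genotype mean in ABA2-OE, a position that the choice of members for a low ABA2-OE mean largely fixes. The highest mean was in aba2 for 16 members, in aba2/GA20OX1-OE for 16, in GA20OX1-OE for 6 and in aba2/ga20ox1 for 5.

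**Figure D1:**
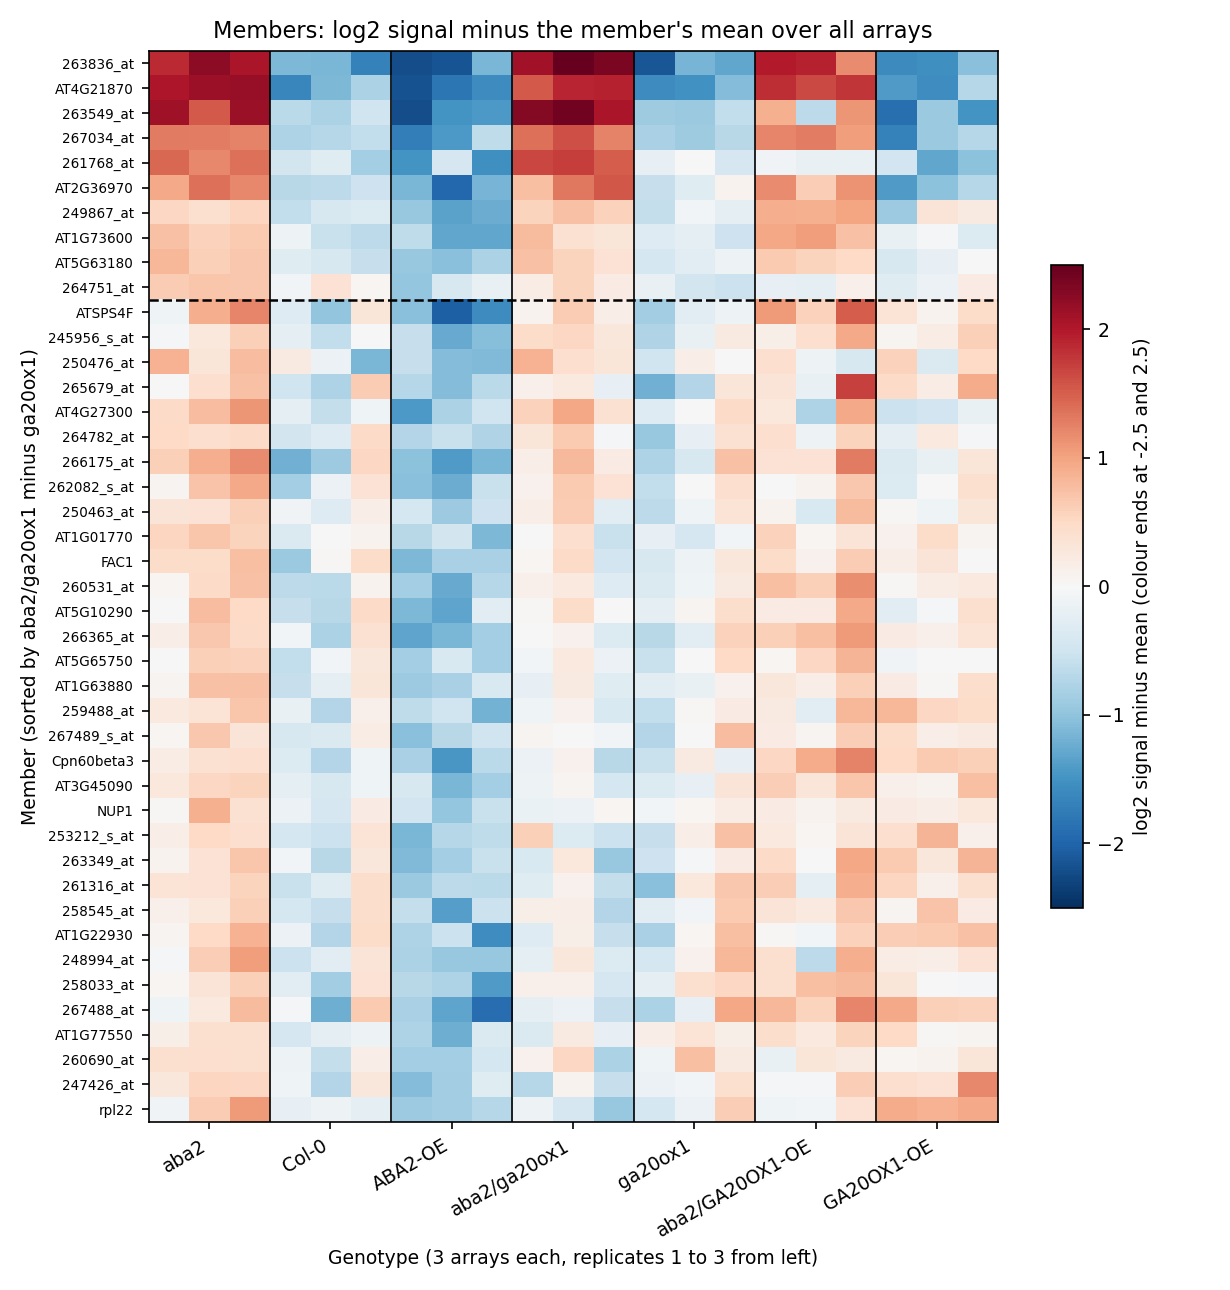
Log2 signal of each of the 43 members (rows) on each of 21 arrays (columns, 3 per genotype) minus the member's mean over all arrays, with red above and blue below that mean. Above the dashed line are the 10 members called higher in aba2/ga20ox1 than in ga20ox1; in every row the lowest genotype mean is that of ABA2-OE.

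Which members met the rule depended on single arrays, and the part of the array medians in this was not tested. The ABA2-OE arrays had the lowest median signals over all probe sets, 131 to 135, against 136 to 157 on the Col-0 arrays, while the aba2 arrays had 140 to 164. Within the Col-0 group the mean log2 signal of the members was 7.97 and 7.88 on replicates 1 and 2 and 8.42 on replicate 3, which also had the highest median signal of the 3. Without Col-0 replicate 3, 17 of the 43 members still met the rule, and without Col-0 replicate 2, 21 did. Of 43 members, 3 met the rule in each of the 9 sets that left out 1 array of aba2, Col-0 or ABA2-OE, namely 249867_at, 263549_at and the sucrose phosphate synthase gene ATSPS4F. After quantile normalization, which gives all arrays the same distribution of signals, 20 of the 43 met it. AT4G21870 and AT1G73600 were among these 20, and AT2G36970 and AT5G63180 were not. Of the 9 sets, AT4G21870 and AT1G73600 met the rule in 8 each, AT2G36970 in 6 and AT5G63180 in 5.

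The tissue label was checked with gene lists that carry few named probe sets on this array. The 10 tested nuclear photosynthesis genes had a summed signal of 146158 to 258898 over all arrays, lowest in aba2/GA20OX1-OE (146158 to 173102, against 159415 to 186169 in GA20OX1-OE). Among them LHCB4.3 was higher after loss of ABA2, by a log2 difference of 1.05 in the ga20ox1 and 1.39 in the GA20OX1-OE background. The other genes of this list lay between -0.39 and -0.01 in both. The summed signal of 4 flower and pollen markers (INO, FD, ATA27 and ACT11) was 1193 to 1872 on the aba2/GA20OX1-OE arrays, against 427 to 693 on the GA20OX1-OE arrays, and it was 302 to 516 in aba2/ga20ox1 against 286 to 446 in ga20ox1. Such sums can hide genes that went opposite ways. In aba2/ga20ox1 against ga20ox1 the log2 difference was 4.68 for ATA27, 0.71 for INO, 0.15 for FD and -0.95 for ACT11. In aba2/GA20OX1-OE against GA20OX1-OE it was 4.36 for ATA27, 0.26 for INO, 0.41 for FD and 0.16 for ACT11. The sum of the 2 tested root markers, PYK10 and EXPA18, was 310 to 722 in aba2/GA20OX1-OE against 1097 to 1696 in GA20OX1-OE, and 959 to 1218 in aba2/ga20ox1 against 1600 to 1785 in ga20ox1. PYK10 differed by -1.62 in the first and -0.69 in the second of these comparisons, and EXPA18 by 0.10 and -0.60. The sum of 2 stomatal lineage markers, FMA and SPCH, was 180 to 262 in aba2/GA20OX1-OE against 223 to 295 in GA20OX1-OE, and 228 to 360 in aba2/ga20ox1 against 247 to 394 in ga20ox1. FMA differed by -0.29 and -0.20 in these comparisons, and SPCH by -0.17 and 0.26. The 1 tested seed marker stayed between 26.9 and 86.3 on all arrays. Their part in the differences below was not tested, and in whole rosettes fewer cells of a type and less RNA per cell cannot be told apart.

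Whether the members also changed with ABA2 on arrays the rule's differences did not use was asked in both GA20OX1 states, with aba2/ga20ox1 set against ga20ox1 and aba2/GA20OX1-OE set against GA20OX1-OE. In the ga20ox1 background 10 members rose after loss of ABA2, and 0 were called lower. Called means a Benjamini-Hochberg adjusted p under 0.05 in limma over 15923 probe sets, of which 2.88% were called higher and 2.56% lower in this comparison. In the GA20OX1-OE background 8 members rose and 0 were called lower, where 2.73% of all tested probe sets were called higher and 1.8% lower. The 8 were among the 10. Same-numbered arrays of aba2/GA20OX1-OE and GA20OX1-OE deviated together, and with the replicate number as a block 10 members rose in this background (3.42% of all tested) and 1 fell (2.75%). In these 2 comparisons 12 and 13 members had an unadjusted p under 0.05. The share of all tested probe sets under that bound was not counted here or below, so such counts are descriptions only. The median difference of all 43 members was 0.09 in the ga20ox1 background (all tested probe sets -0.04) and 0.23 in the GA20OX1-OE background (all tested 0.00). Above 0 were 26 and 32 of the 43 differences, 60.5% and 74.4%, against 45.2% and 50.3% of all tested. Without ga20ox1 replicate 1 the first of these medians was -0.05 and without ga20ox1 replicate 3 it was 0.28, and it was also below 0 without aba2/ga20ox1 replicate 2 (-0.05) and 0.26 without aba2/ga20ox1 replicate 3. The second was 0.39 without aba2/GA20OX1-OE replicate 2 and 0.13 without aba2/GA20OX1-OE replicate 3. Arrays did not overlap for 13 members that were higher in aba2/ga20ox1 (11% of all tested) and for 15 that were higher in aba2/GA20OX1-OE (11.2%), while 0 (10.7%) and 2 (8.99%) were lower without overlap.

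The level criterion of the rule averaged all 21 arrays. Of the members, 3 with a mean under 7 on the 12 arrays without aba2 met it only with the arrays that carry aba2 (AT2G36970, 263836_at and 263349_at). For 263349_at, however, the highest mean was that of GA20OX1-OE (7.68), and aba2/ga20ox1 had 6.73. With the level taken over the 9 arrays of aba2, Col-0 and ABA2-OE alone, a setting added after seeing the data, 39 members were left. Of these 8 were called higher in aba2/ga20ox1 and 6 in aba2/GA20OX1-OE. Left out were AT2G36970, 263836_at, 263349_at (mean 6.88 on those 9 arrays) and 267488_at (6.82). The highest mean of 267488_at was in aba2/GA20OX1-OE (8.10). Differences of 263349_at and 267488_at with GA20OX1 dose thus partly reflect how they were chosen.

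AT4G21870, which encodes a protein of the small heat shock protein (HSP20-like) family of chaperones, showed the largest rise among members with 1 gene. Its log2 signals were 11.40, 11.79 and 11.80 in aba2/ga20ox1, against 8.30, 8.35 and 8.78 in ga20ox1, a 9.10-fold difference (log2 difference 3.19, SE 0.22, limma adjusted p = 7.36e-09). In aba2/GA20OX1-OE they were 11.72, 11.53 and 11.67, against 8.47, 8.32 and 9.15 in GA20OX1-OE (2.99, SE 0.22, limma adjusted p = 2.59e-08). In neither background did the groups overlap. GA20OX1-OE differed from ga20ox1 by less than the SE (0.17, SE 0.22), as did aba2/GA20OX1-OE from aba2/ga20ox1 (-0.03, SE 0.22). The aba2 arrays stood at 11.90, 12.01 and 12.06, the Col-0 arrays at 8.25, 8.75 and 9.10, and the ABA2-OE arrays at 7.70, 8.06 and 8.30, so the groups of the rule's lower step, ABA2-OE and Col-0, overlapped in their highest and lowest array.

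AT2G36970, the UDP-glycosyltransferase gene, whose product belongs to a family that attaches sugars to hormones and other small molecules, rose in both backgrounds. It met the level criterion only through arrays that carry aba2 (mean 6.17 on the 12 without), so its p-values partly reflect how it was chosen. It measured 7.76, 8.32 and 8.56 in aba2/ga20ox1, against 6.43, 6.70 and 7.09 in ga20ox1 (1.47, SE 0.27, limma adjusted p = 0.00165). In aba2/GA20OX1-OE it measured 8.18, 7.61 and 8.12, against 5.60, 5.98 and 6.28 in GA20OX1-OE, a 4.04-fold difference (log2 difference 2.01, SE 0.27, limma adjusted p = 5.25e-05). Neither pair of groups overlapped. Its means ran down from 8.21 in aba2/ga20ox1, 8.18 in aba2 and 7.97 in aba2/GA20OX1-OE, whose arrays overlap, to 6.74 in ga20ox1, 6.38 in Col-0, 5.95 in GA20OX1-OE and 5.58 in ABA2-OE.

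AT1G73600 encodes an enzyme of the phosphoethanolamine methyltransferase family, which makes the head group of phosphatidylcholine. Its log2 signals were 12.28, 11.86 and 11.78 in aba2/ga20ox1, against 11.16, 11.27 and 10.97 in ga20ox1 (0.85, SE 0.18, limma adjusted p = 0.00528), and 12.46, 12.52 and 12.22 in aba2/GA20OX1-OE, against 11.30, 11.46 and 11.14 in GA20OX1-OE (1.10, SE 0.18, limma adjusted p = 0.000458). Neither pair of groups overlapped. AT5G63180 encodes a protein of the pectin lyase-like family, whose members cut pectin in the cell wall. It stood at 12.08, 11.90 and 11.72 in aba2/ga20ox1, against 10.92, 11.10 and 11.22 in ga20ox1 (0.82, SE 0.13, limma adjusted p = 0.000514). In aba2/GA20OX1-OE it stood at 12.002, 11.92 and 11.86, against 10.96, 11.14 and 11.36 in GA20OX1-OE (0.77, SE 0.13, limma adjusted p = 0.000796). With differences of less than 2-fold in 3 of these 4 comparisons, both genes changed less than AT4G21870, and their SE from the fit was smaller.

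**Figure D2:**
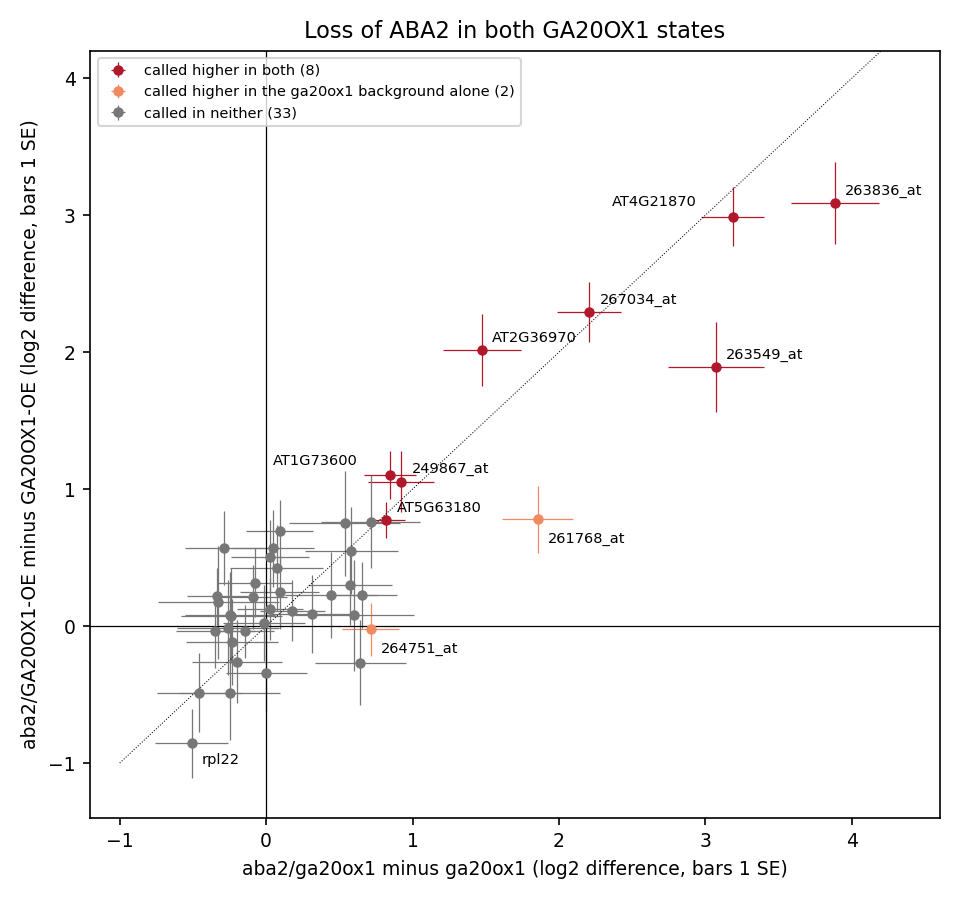
Log2 difference after loss of ABA2 in the ga20ox1 background (x axis) and in the GA20OX1-OE background (y axis) for each of the 43 members, with bars of 1 SE from limma and a dotted line of equal differences. The 8 members called in both comparisons lie between 0.77 and 3.88 on both axes, and the 33 called in neither lie between -0.86 and 0.76.

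Of the 10 members that rose, 6 are not listed by the annotation. The probe set 263836_at had 9.43, 9.93 and 9.69 in aba2/ga20ox1, against 5.18, 6.17 and 6.04 in ga20ox1 (3.88, SE 0.30, limma adjusted p = 6.03e-08), and it rose by 3.09 (SE 0.30) in aba2/GA20OX1-OE against GA20OX1-OE. Like AT2G36970, it met the level criterion only through arrays that carry aba2 (mean 5.81 on the 12 without), so the same limit holds for its p-value. The probe set 267034_at rose by 2.21 and 2.29 (SE 0.22 each) and 249867_at by 0.92 and 1.06 (SE 0.23 each). For 249867_at the call in the ga20ox1 background ended without aba2/ga20ox1 replicates 2 or 3 or without ga20ox1 replicate 1, at adjusted p = 0.0511 to 0.0598 in limma (range over all alternatives 0.000758 to 0.0598) and differences of 0.78 to 0.94. It also ended in the fit on the 12 arrays of the 4 GA20OX1 genotypes alone, with the difference unchanged (0.92, limma adjusted p = 0.0537).

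The other 3 that rose gave lower differences in the GA20OX1-OE background, as did 263836_at, AT4G21870 and AT5G63180. The probe set 263549_at had 11.01, 11.14 and 10.77 in aba2/ga20ox1, against 7.83, 7.78 and 8.09 in ga20ox1 (3.07, SE 0.33). In aba2/GA20OX1-OE it had 9.61, 8.06 and 9.82, against 6.82, 7.79 and 7.22 in GA20OX1-OE (1.89, SE 0.33), with replicate 2 of aba2/GA20OX1-OE the lowest of its 3 arrays and above all GA20OX1-OE arrays. The probe set 261768_at rose by 1.85 (SE 0.24) in the ga20ox1 background and measured 8.14, 8.03 and 8.05 in aba2/GA20OX1-OE, against 7.75, 6.93 and 7.20 in GA20OX1-OE (0.78, SE 0.24, limma adjusted p = 0.073, and 0.0478 with the replicate block). The probe set 264751_at rose by 0.71 (SE 0.19) in the ga20ox1 background and differed by -0.02 (SE 0.19) in the GA20OX1-OE background. Its call ended without any 1 of the aba2/ga20ox1 arrays or without ga20ox1 replicates 2 or 3 (limma adjusted p up to 0.117; range over all alternatives 0.000629 to 0.117). The difference between both backgrounds, tested as the interaction of loss of ABA2 with the GA20OX1 state, was called for 0 of the 43 members in limma, where 0.0628% of all tested probe sets were called higher and 0.0188% lower. It was -1.18 (SE 0.46, adjusted p = 0.844) for 263549_at, -1.08 (SE 0.34, 0.566) for 261768_at and -0.74 (SE 0.27, 0.811) for 264751_at. For 263836_at it was -0.80 (SE 0.42), and for 258033_at it went the other way (0.86, SE 0.38). Unadjusted, 4 members had a p under 0.05 in the interaction (share of all tested not counted). Over all members 24 interaction values lay above 0 and 19 below (55.8% above, against 55.4% of all tested probe sets).

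To ask how GA20OX1 dose acts on the members, GA20OX1-OE was compared with ga20ox1, with ABA2 intact. Limma called 0 of 43 members (0.0691% of all tested probe sets were called higher and 0.0628% lower). Unadjusted, 10 members had a p under 0.05 (share of all tested not counted). With array quality weights 6 were called higher and 2 lower, where that fit called 9.31% and 5.72% of all tested probe sets. The median difference of the members was 0.23 (all tested 0.06), and 33 of 43 lay above 0 (76.7%, against 58.7% of all tested). This median was 0.03 without ga20ox1 replicate 1 (all tested 0.02), 0.42 without ga20ox1 replicate 3 and 0.02 with the median log2 signal of each array as a covariate, a setting added after seeing the data. Without overlap between arrays 6 members were higher (8.74% of all tested) and 2 lower (6.21%). The array medians moved in the same direction, at 156 to 168 in GA20OX1-OE against 136 to 168 in ga20ox1. The chloroplast-encoded ribosomal protein gene rpl22 had 12.52, 12.45 and 12.54 in GA20OX1-OE, against 11.14, 11.44 and 12.21 in ga20ox1 (0.91, SE 0.25, limma adjusted p = 0.196), with no overlap. AT2G36970 was lower without overlap (-0.79, SE 0.27, limma adjusted p = 0.304).

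Without ABA2, in aba2/GA20OX1-OE against aba2/ga20ox1, 4 members were called, 2 higher (2.73% of all tested probe sets) and 2 lower (1.18%). Arrays did not overlap for 12 members that were higher (15.9% of all tested) and 4 that were lower (8.98%). At an unadjusted p under 0.05 limma gave 15 members (share of all tested not counted). Cpn60beta3, which encodes a subunit of the chaperonin that folds proteins in chloroplasts, had 8.27, 8.66 and 8.97 in aba2/GA20OX1-OE, against 7.59, 7.84 and 7.04 in aba2/ga20ox1, a 2.21-fold rise (1.14, SE 0.25, limma adjusted p = 0.0109). The unlisted probe set 260531_at rose by 0.83 (SE 0.23, limma adjusted p = 0.0433). The falls were in 263549_at (-1.81, SE 0.33, limma adjusted p = 0.00296) and 261768_at (-1.79, SE 0.24, limma adjusted p = 0.000123), both of which had risen after loss of ABA2 in the ga20ox1 background. In 261768_at the 3 arrays of aba2/ga20ox1 lay between 9.74 and 9.95, those of aba2 between 9.43 and 9.66 and those of aba2/GA20OX1-OE between 8.03 and 8.14, so that high GA20OX1 went with a level near that of ga20ox1 (7.80 to 8.21).

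The array medians were again higher in aba2/GA20OX1-OE, at 149 to 187, than in aba2/ga20ox1, at 135 to 147. With that covariate neither rise was called (Cpn60beta3 0.87, limma adjusted p = 0.124; 260531_at 0.29, 0.558), while both falls were. That fit also called AT4G27300 lower, where it called 1.51% of all tested probe sets higher and 0.716% lower. The median difference of the 43 members was 0.32 in the main fit and -0.16 with the covariate. Array medians did not overlap between these 2 genotypes, so the covariate and the genotype difference cannot be told apart. Cpn60beta3 also lost its call without aba2/ga20ox1 replicate 3 (0.0862) or aba2/GA20OX1-OE replicate 3 (0.0701), within a range of 0.00788 to 0.124 over all alternatives. The call of 260531_at ended in 13 of 31 alternatives, with adjusted p from 0.0175 to 0.558 over all of them. Without either of those 2 arrays 0 members were called higher.

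**Figure D3:**
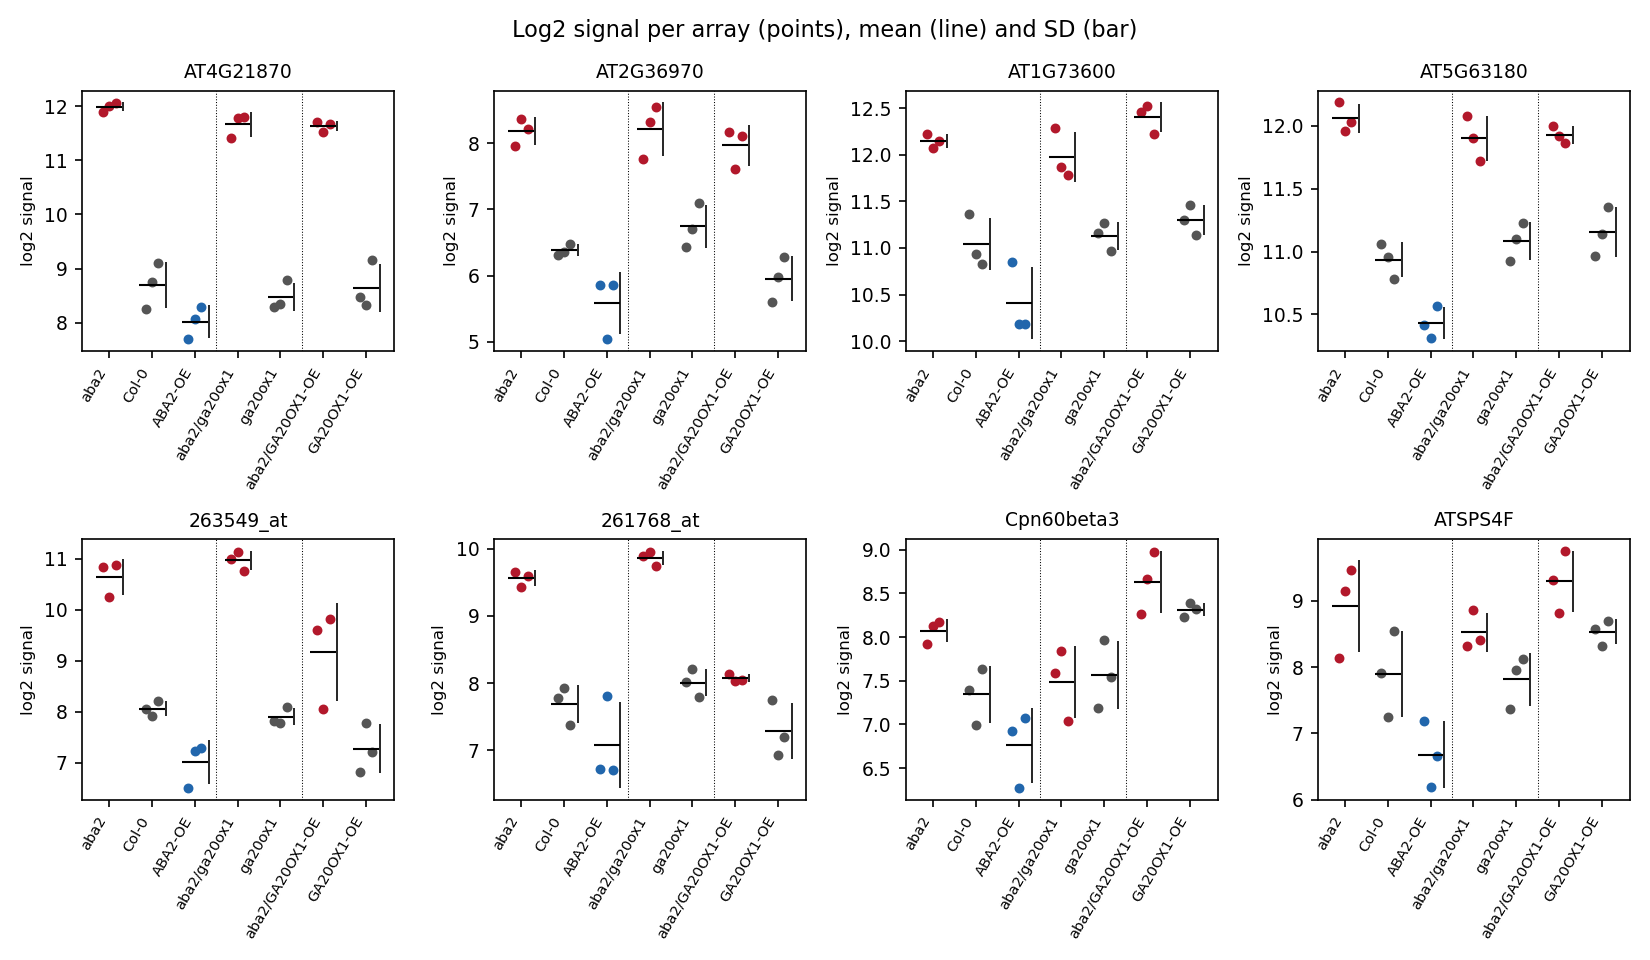
Log2 signal per array (points), genotype mean (line) and SD (bar, n = 3) for 8 members, with genotypes ordered by ABA2 dose in the left part of each panel and loss of ABA2 beside its own background in the middle and right parts. The upper 4 genes are high in the 3 genotypes with aba2; 263549_at and 261768_at are lower in aba2/GA20OX1-OE than in aba2/ga20ox1, and Cpn60beta3 is higher there.

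The other 33 members were called in neither loss of ABA2. Their differences lay between -0.51 and 0.71 in the ga20ox1 background (median 0.00) and between -0.86 and 0.76 in the GA20OX1-OE background (median 0.13). Among genes of metabolism, ATSPS4F, whose enzyme makes the precursor of sucrose, had the widest difference of any member between ABA2-OE and Col-0 among the values that chose it (-1.22). It stood at 8.32, 8.86 and 8.41 in aba2/ga20ox1, against 7.36, 7.96 and 8.12 in ga20ox1, without overlap but not called (0.71, SE 0.34, limma adjusted p = 0.254), and at 9.31, 8.82 and 9.75 in aba2/GA20OX1-OE, against 8.58, 8.32 and 8.69 in GA20OX1-OE (0.76, SE 0.34, limma adjusted p = 0.271). FAC1, the AMP deaminase gene, differed by 0.09 in the ga20ox1 and by 0.25 in the GA20OX1-OE background. AT5G65750, for the first subunit of 2-oxoglutarate dehydrogenase of the citric acid cycle, differed by 0.03 and 0.51.

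Among organelle and nuclear genes, rpl22 was the member that went furthest the other way. It had 11.45, 11.17 and 10.64 in aba2/ga20ox1, against 11.14, 11.44 and 12.21 in ga20ox1 (-0.51, SE 0.25), and 11.48, 11.53 and 11.94 in aba2/GA20OX1-OE, against 12.52, 12.45 and 12.54 in GA20OX1-OE (-0.86, SE 0.25, limma adjusted p = 0.0525, and 0.0308 with the replicate block). Cpn60beta3 differed by -0.08 and 0.32 after loss of ABA2, and NUP1, for a nucleoporin of the nuclear basket, by -0.14 and -0.04. Genes of perception and immunity were AT4G27300, a receptor kinase gene of the S-locus lectin family (0.58 and 0.55), AT5G10290, a leucine-rich repeat receptor kinase gene (0.07 and 0.42), and AT1G63880, an immune receptor gene of the TIR-NBS-LRR class (0.02 and 0.13), none of them called. The probe set 262082_s_at, which reads the 3 neighbouring loci AT1G56120, AT1G56130 and AT1G56140 and cannot part them, differed by 0.44 and 0.23. AT1G01770, AT1G22930, AT1G77550 and AT3G45090 lay between -0.49 and 0.22 in both backgrounds, and the remaining 19 members, of which 17 are not listed and 2 read several genes, were not called either.

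Of these 19, the probe set 266175_at had differences of 0.54 in the ga20ox1 and 0.75 in the GA20OX1-OE background. The probe set 260531_at differed by 0.69 in the GA20OX1-OE background (SE 0.23, limma adjusted p = 0.0972, and 0.0421 with the replicate block). The probe set 250476_at differed by 0.64 in the first and by -0.27 in the second background, and 258033_at by -0.29 and 0.57. The widest differences of the uncalled members with GA20OX1 dose were those of 265679_at, at 1.07 in GA20OX1-OE against ga20ox1, and of 267488_at, at 1.203 in aba2/GA20OX1-OE against aba2/ga20ox1. With a mean of 6.82 on the 9 arrays of aba2, Col-0 and ABA2-OE, 267488_at met the level criterion through the GA20OX1 genotypes. Its difference there partly reflects how it was chosen. Set against Col-0 with no test, because Col-0 served in the rule, the 43 members had median differences of 0.61 in aba2/GA20OX1-OE, 0.20 in aba2/ga20ox1, 0.39 in GA20OX1-OE and 0.15 in ga20ox1. All tested probe sets had 0.11, 0.00, 0.09 and 0.03 in the same order of genotypes. Of 43 members 42, 37, 35 and 33 lay above Col-0 in those 4 genotypes, 2 of which carry intact ABA2. The share of all tested probe sets above Col-0 was not counted, so nothing is read from these counts.

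Within a genotype, the signal of most of these 33 members moved with the median signal of the array. For each probe set the deviations of the 12 arrays of the 4 genotypes with altered GA20OX1 from their genotype means were correlated with the same deviations of the array median, given here as a description because the points share arrays. Over the 33 members the median of r was 0.77 (range 0.17 to 0.96), and over the 10 that rose after loss of ABA2 it was 0.11 (range -0.56 to 0.55). Over all tested probe sets it was 0.25, a value that 31 of the 33 exceeded, and the exceptions were 250476_at (0.17) and 260690_at (0.24). In ga20ox1 the mean log2 signal of the 33 ran from 7.66 to 8.56 over arrays with medians of 136 to 168, whereas the mean of the 10 ran from 8.39 to 8.62. By genotype the mean of the 10 was 10.43 in aba2/ga20ox1 against 8.53 in ga20ox1 and 9.98 in aba2/GA20OX1-OE against 8.39 in GA20OX1-OE. That of the 33 was 8.17 against 8.12 and 8.59 against 8.45. The split into 10 and 33 was made on the same comparisons and arrays, so neither these means nor the values of r are a test. With the array median as a covariate 16 members were called higher in aba2/ga20ox1 than in ga20ox1, among them ATSPS4F and AT4G27300, and 10 in aba2/GA20OX1-OE than in GA20OX1-OE. That fit called 3.56% and 3.98% of all tested probe sets higher in these comparisons. The part of array quality in the rule's own differences was not tested.

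**Figure D4:**
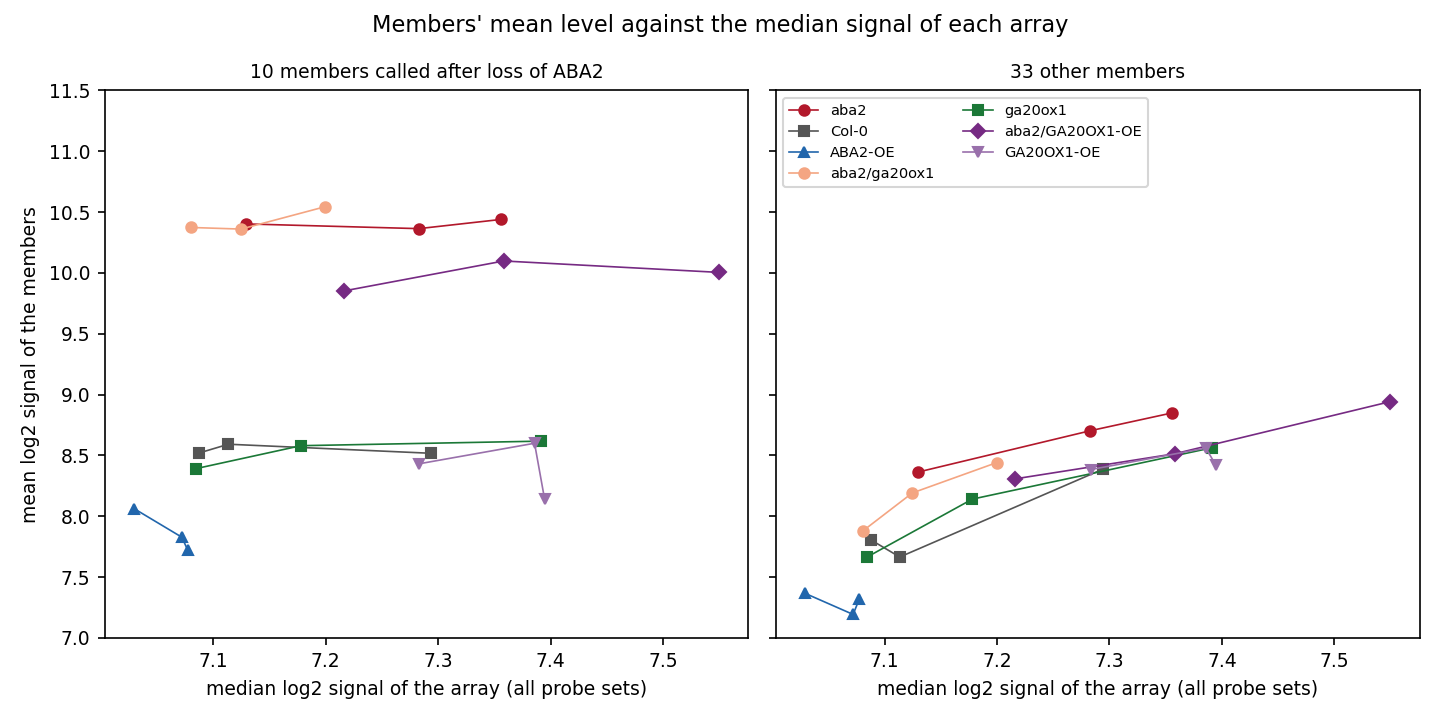
Mean log2 signal of the 10 members called after loss of ABA2 (left) and of the 33 others (right) on each array, against the array's median log2 signal over all probe sets, with lines joining the 3 arrays of a genotype. In ga20ox1 the right-hand mean runs from 7.66 to 8.56 as the array median rises. On the left the 3 genotypes with aba2 lie at 9.85 or above and the others at 8.62 or below. The members on the left were chosen by the rule and by calls on these arrays, which largely fixes that gap.

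Genes known from ABA and GA biology served as a contrast. The 22 lists of hormone, defence, growth, clock, pigment and marker genes held 0 members, but with only 54 of their probe sets tested, 0 in 3 of the lists, and members making up 0.27% of all tested probe sets, nothing is read from that count. Of 5 tested ABA-induced genes 3 fell in each comparison, COR15A, COR47 and HIS1-3 in aba2/ga20ox1 against ga20ox1 and COR15A, COR47 and COR15B in aba2/GA20OX1-OE against GA20OX1-OE. The log2 differences of COR15A, which encodes a protective chloroplast protein, were -2.93 and -2.86 (SE 0.33 each). The median of the list was -1.22 in the ga20ox1 background and -0.90 in the GA20OX1-OE background. Of 5 tested genes of GA perception and DELLA control (GID1A, GID1B, GID1C, SLY1 and SPY) 0 were called in either loss of ABA2 or either change of GA20OX1, with median differences of -0.10, -0.09, -0.28 and -0.30. At an unadjusted p under 0.05 limma gave 0 of them in each loss of ABA2 and 2 in each change of GA20OX1.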

How the data were processed

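The deposited values are linear signal intensity per probe set from MAS5, a program named by the submitters' processing notes without a version. The mean of each array without the lowest and highest 2% of values was 500. All tests used log2 of these deposited values as they stood. The 64 control probe sets and the 30% of the others with the lowest mean were left out, which kept 15923, all 43 members included. Names came from the annotation supplied with the series, updated through the RefSeq gene table (TAIR10.1).

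A single limma model (limma 3.58.1, R 4.3.3; lmFit, then eBayes with trend) held the 7 genotypes and all 21 arrays, with no block, with two-sided p-values adjusted by Benjamini-Hochberg over all 15923 probe sets for each of 5 comparisons. None of these 5 uses an array of aba2, Col-0 or ABA2-OE in its difference. The script was tested on simulated data with changes put into aba2/ga20ox1. There 3 of 50 log2 changes of 0.5 and 29 of 50 changes of 1.0 were called, so a member not called may still differ. Python 3.11.15 made tables and figures.

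The members, the lists and the comparisons were chosen with earlier results of these data known. The rule for named genes took the largest called rises and falls, the widest differences and the members at the thresholds; genes from the remaining members were named to account for all of them, after their values were seen. Alternatives were eBayes without a trend, array weights, the replicate number as a block, the 12 arrays of the 4 GA20OX1 genotypes alone, no filter, a filter of 50%, a pseudocount of 20.1, quantile normalization, each array left out and aba2/GA20OX1-OE replicate 3 left out along with GA20OX1-OE replicate 2. Same-numbered arrays deviated together in all 3 pairs of aba2/GA20OX1-OE with GA20OX1-OE (r of 0.151 to 0.248) and of GA20OX1-OE with ga20ox1 (0.131 to 0.229), by a bound of 0.1. They did so in 0 of 3 pairs of aba2/ga20ox1 with ga20ox1 (-0.191 to 0.036) or with aba2/GA20OX1-OE (-0.247 to 0.059). Arrays with different numbers were not compared in this way and the labels are silent, so whether the numbers pair the samples was not settled.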

Additional observations from a re-analysis of the deposited data

How the results depend on the processing

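Of 22 called differences of members, 18 stayed called with the same sign under every alternative that tested them, and 0 changed sign. The other 4 belong to 249867_at, 264751_at, 260531_at and Cpn60beta3. The number of members was 20 after quantile normalization, 115 and 16 with thresholds of 0.4 and 0.6, 74 and 21 with mean levels of 6 and 8, and between 31 and 116 with 1 array left out, the last without aba2 replicate 1. Counts of members called higher after loss of ABA2 ran from 8 to 10 in the ga20ox1 and from 8 to 9 in the GA20OX1-OE background with 1 array left out. The first was 16 with the array median as a covariate, added after seeing the data; the causes of these shifts were not tested. Array quality weights, which called 10.2% and 4.82% of all tested probe sets higher after loss of ABA2 in the ga20ox1 and GA20OX1-OE backgrounds, gave 15 and 10 members higher there. They also gave 1 member called lower in each background (10.8% and 3.87% of all tested), 6 higher and 2 lower in GA20OX1-OE against ga20ox1, and 4 higher in aba2/GA20OX1-OE against aba2/ga20ox1 (4.85%). The single member called lower in aba2/GA20OX1-OE against GA20OX1-OE was rpl22, with array weights, the replicate block, the pseudocount, the covariate and in 7 of the sets with 1 array left out (0 to 1 over these sets). The replicate block gave 10 higher in each background and changed no call of the 22. In aba2/GA20OX1-OE against aba2/ga20ox1, where same-numbered arrays did not deviate together, it added 266365_at (limma adjusted p = 0.0397). Rises in aba2/GA20OX1-OE against aba2/ga20ox1 numbered 1 with no filter, 0 with the covariate, 0 without aba2/GA20OX1-OE replicate 3 plus GA20OX1-OE replicate 2 and 0 to 3 with 1 array left out. In GA20OX1-OE against ga20ox1 they numbered 0 to 1 with 1 array left out.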
